A study of Mus musculus with 6 samples.

Results

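The nuclear-encoded subunits of oxidative phosphorylation were taken as the gene symbols of the count files that begin with Nduf, Sdh, Uqcr, Cox or Atp5 and fit the usual subunit numbering, together with Cyc1 and Cycs. They numbered 82 of 24421 genes, with 36 in complex I, 4 in complex II, 10 in complex III and cytochrome c, 17 in complex IV and 15 in complex V. The tissue was the Purkinje neuron layer of the cerebellum with the adjoining molecular layer, microdissected from mice of 1 year. There were 3 STIM1 knockout (KO) and 3 wild type (WT) animals, and STIM1 is the calcium sensor of the endoplasmic reticulum. The labels name neither the allele, the cells in which Stim1 was removed, the strain nor the sex, and the layers hold other cell types beside Purkinje neurons.

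Oxidative phosphorylation is carried out in the inner mitochondrial membrane. Complexes I and II pass electrons from NADH and succinate to ubiquinone, complex III passes them on to cytochrome c, and complex IV passes them to oxygen. Complexes I, III and IV pump protons, and complex V, the ATP synthase, uses the gradient to make ATP. Most subunits are encoded in the nucleus, and Purkinje neurons, which fire without pause, are known for a high demand for mitochondrial ATP. The comparison of the genotypes asks which of these transcripts differ in the tissue of STIM1 knockout mice.

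The libraries were shallow in genes. They held from 645994 to 764839 counts in genes, which were 1.16% to 1.23% of the uniquely aligned reads, and 98.8% of those reads fell in no counted gene in each of the 6. Stim1 itself had 4, 3 and 2 counts in KO replicates 1 to 3, against 7, 21 and 3 counts in WT replicates 1 to 3, which is too few to check the genotype. Counts in 4 Y-linked genes (Ddx3y, Eif2s3y, Kdm5d, Uty) came to 14 in KO replicate 3 and 28 in WT replicate 3 and were 0 elsewhere, so each genotype held 1 library that stood apart. Whether counting used strand is not given in the sources used here. Reads from a gene and from a gene on the other strand therefore cannot be told apart. Counts may reflect opposite-strand reads also where no overlapping gene is annotated, which was not tested. A value below may thus not describe the mRNA of the gene named. In bulk tissue, fewer cells of a type and less RNA per cell cannot be told apart either. The series text calls the libraries biological replicates.

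The promoters of these genes are known for binding sites of nuclear respiratory factor 1 (NRF1), of the ETS factor GABPA and of YY1, and the letters of such sites were looked for on both strands of windows from 250 bases before to 50 bases after the RefSeq start (GRCm38.p6). A window was found for 66 of the 82 genes. The NRF1 letters, GCGCA and GCGC with any 1 base between them, were present in 17 of the 66 (25.8%), against 4.6% of all 32851 promoters. The GABPA letters CCGGAAG were present in 16 (24.2%, against 8.86% of all), and the YY1 letters AAGATGGC in 9 (13.6%, against 2.75% of all). At least 1 of the 3 motifs was present in 36 of the 66 windows (54.5%), against 14.7% of all promoters. No match overlapped a match of another motif in these windows. The windows were also richer in G and C, with a median of 57.2% against 52.7% over all promoters. A match is a description of the letters and not a site of binding. The 4 windows below are those of Ndufa5, Sdha and Atp5b, which had the lowest p in complexes I, II and V, and of Atp5j, whose start lies against that of Gabpa, the gene of GABPA itself. Capitals mark the letters of the 3 motifs, and sequences run 5′ to 3′ on the strand of the gene.
Ndufa5, chr6:24527641-24527940, minus strand: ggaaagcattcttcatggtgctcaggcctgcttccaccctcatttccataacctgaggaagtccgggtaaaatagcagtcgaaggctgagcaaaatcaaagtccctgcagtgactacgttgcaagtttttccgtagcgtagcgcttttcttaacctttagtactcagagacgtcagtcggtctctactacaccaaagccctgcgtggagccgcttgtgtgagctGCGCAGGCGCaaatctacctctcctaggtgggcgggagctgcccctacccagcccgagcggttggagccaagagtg
Sdha, chr13:74350191-74350490, minus strand: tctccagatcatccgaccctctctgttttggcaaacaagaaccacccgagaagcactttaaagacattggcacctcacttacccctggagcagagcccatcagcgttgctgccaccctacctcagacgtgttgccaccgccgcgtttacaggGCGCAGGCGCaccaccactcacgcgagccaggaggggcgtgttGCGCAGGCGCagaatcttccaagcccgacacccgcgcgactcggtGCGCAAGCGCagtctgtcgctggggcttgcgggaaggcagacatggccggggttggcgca
Atp5b, chr10:128083057-128083356, plus strand: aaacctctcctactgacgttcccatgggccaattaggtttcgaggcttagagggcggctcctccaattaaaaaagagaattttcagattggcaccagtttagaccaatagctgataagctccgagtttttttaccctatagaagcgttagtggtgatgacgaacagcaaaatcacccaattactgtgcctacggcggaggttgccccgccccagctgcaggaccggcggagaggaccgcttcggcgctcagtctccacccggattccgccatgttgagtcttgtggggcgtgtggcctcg
Atp5j, chr16:84834927-84835226, minus strand: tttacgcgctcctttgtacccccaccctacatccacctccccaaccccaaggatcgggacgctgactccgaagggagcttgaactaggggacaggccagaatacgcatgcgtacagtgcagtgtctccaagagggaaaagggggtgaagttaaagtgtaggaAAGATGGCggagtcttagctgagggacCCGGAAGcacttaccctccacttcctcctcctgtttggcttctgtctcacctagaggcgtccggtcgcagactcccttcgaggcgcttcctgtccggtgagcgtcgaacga
The Sdha window held the NRF1 letters 3 times, beginning 98, 55 and 10 bases before the start, and the Ndufa5 window once, 26 bases before it. The Atp5j window held the YY1 letters 88 bases and the GABPA letters 61 bases before the start. None of the 3 motifs was in the Atp5b window.

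Counts in these genes were few. Of the 82 genes 80 had a count in some library, 43 stayed under 10 counts in every library, and Cox7b2 and Cox8c had 0 counts in all 6. Together they took 0.145% to 0.151% of gene counts in KO libraries, against 0.162% to 0.176% in WT libraries, and the groups did not overlap. The exact 95% binomial interval of the KO library with the highest share was 0.142% to 0.160%, and that of the WT library with the lowest share 0.153% to 0.172%, so these overlap. Such intervals cover counting error only. A filter on low counts (edgeR's filterByExpr with a minimum count of 10) kept 20 of the 82 genes, namely 9 of complex I, 1 of complex II, 4 of complex III with cytochrome c, 1 of complex IV and 5 of complex V. The genes kept with the fewest reads, Ndufa6, Ndufb10 and Uqcrb, had 75 counts over the 6 libraries, and the highest of those left out, Cox7c, had 63.

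**Figure D1:**
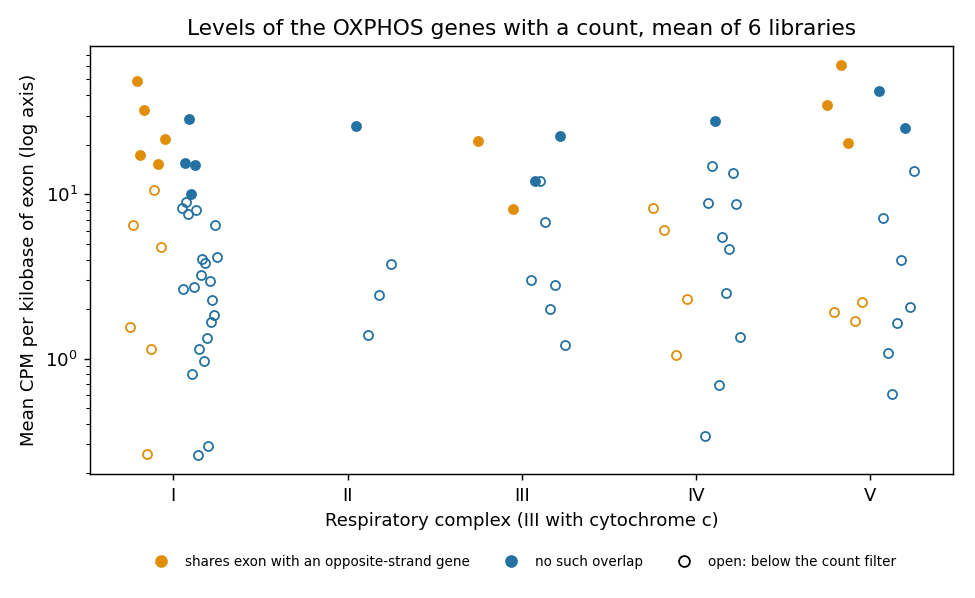
Mean level over 6 libraries of the 80 genes with a count, in CPM per kilobase of exon on a log axis, by respiratory complex; open circles lie below the count filter. The highest point is Atp5f1 at 60.7, among the genes that overlap an exon of the opposite strand.

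By counts per length, the highest gene was Atp5f1, at 60.7 CPM per kilobase of exon. It encodes the b subunit of the peripheral stalk of the ATP synthase. It was followed by Ndufa2, an accessory subunit of complex I, at 49.1 and by Atp5b, the catalytic beta subunit of the ATP synthase, at 42.2 on the same scale. The median over all 82 genes was 4.09 CPM per kilobase, and it was 1.43 over all 15889 annotated genes with a count. Of the 82, 23 overlapped a gene of the opposite strand by 50 exon bases or more. These had a median of 8.13 CPM per kilobase, against 3.77 for the other 59. The same medians over all genes with a count were 3.01 and 1.12. The 23 genes held 51.6% of the counts of all 82.

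No gene of oxidative phosphorylation passed the comparison of KO with WT. At a Benjamini-Hochberg adjusted p under 0.05 in edgeR's quasi-likelihood test, 0 of the 20 were called, as were 0 of all 5320 tested genes (0%). DESeq2 and limma-voom also called 0. At an unadjusted p under 0.05 there were 2 of the 20, Atp5b and Sdha, both lower in KO, where 4.62% of all tested genes reached that level 3.05% on the lower and 1.58% on the higher side. The median log2 fold change of the 20 was -0.13, with 9 above and 11 below 0, against a median of 0.0019 over all tested genes, of which 49.7% lay below 0. Fitted anew with the filter rerun, the median was -0.028 over 24 tested genes without WT replicate 1. It was -0.053 over 26 without WT replicate 2 and -0.24 over 26 without KO replicate 2, so the genes differ from the 20. All KO libraries lay below all WT libraries for 4 of the 20, Ndufa5, Sdha, Atp5b and Atp5a1, and above them for Atp5h, where the background over all tested genes was 5.85% below, 4.83% above and 10.7% in either direction. These counts cover the genes that passed the filter and not the whole set.

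**Figure D2:**
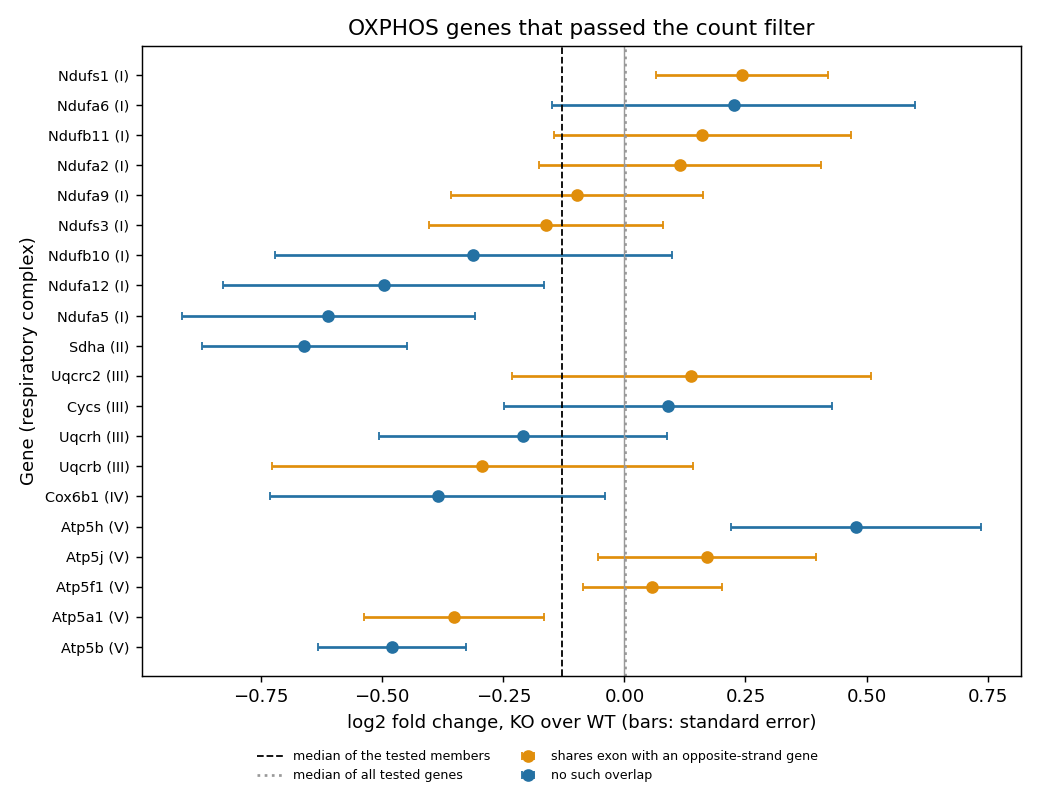
Log2 fold change (KO over WT, bars are standard errors) of the 20 genes that passed the count filter, by respiratory complex, coloured by overlap with a gene on the other strand. Sdha lies lowest at -0.66 and Atp5h highest at 0.48; the dashed line is the median of the 20 (-0.13) and the dotted line that of all tested genes (0.0019).

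In complex I, 4 of the 9 tested genes lay above 0 and 5 below, with a median log2 fold change of -0.097. The median turned to 0.0059 without KO replicate 3 and to 0.0097 with a CPM filter. It was -0.033 without WT replicate 2, -0.20 without KO replicate 1 and -0.25 over genes free of opposite-strand overlap. The filter was run anew in these fits, so the genes behind each median can differ from the 9. Ndufa5, an accessory subunit of the matrix arm, had 13, 19 and 16 counts in KO replicates 1 to 3, against 28, 23 and 21 counts in WT replicates 1 to 3. All 3 KO values were under all 3 WT values. The mean was 23.4 ± 6.23 CPM in KO and 35.4 ± 6.09 CPM in WT (SD, n = 3 each), which is a log2 fold change of -0.61 (SE 0.30, edgeR adjusted p 0.987), and of -0.40 without KO replicate 1. Ndufa12, another accessory subunit of that arm, had 17, 11 and 14 counts in KO, against 23, 12 and 23 in WT. WT replicate 2 lay among the KO libraries, and the log2 fold change was -0.50 (SE 0.33). Ndufs1, the largest iron-sulphur subunit of the electron input module, had 102, 94 and 84 counts in KO, against 87, 65 and 79 in WT. The mean was 134 ± 5.78 CPM in KO and 113 ± 15.8 CPM in WT (SD, n = 3 each), which is a log2 fold change of 0.24 (SE 0.18), and the groups overlapped. Without WT replicate 2 the value was 0.15. Ndufs3, a core subunit next to the quinone site, had 39, 29 and 25 counts in KO, against 30, 38 and 33 in WT, a log2 fold change of -0.16 (SE 0.24), which was -0.043 without WT replicate 2, -0.097 without KO replicate 3 and -0.26 without KO replicate 1. The other 5 tested genes, Ndufb10, Ndufa6, Ndufb11, Ndufa2 and Ndufa9, lay between -0.31 and 0.23, with every standard error at 0.26 or more. The summed level of all 36 genes was 491 ± 6.77 CPM in KO and 509 ± 26.1 CPM in WT (SD, n = 3 each), the groups overlapped, and WT replicate 1 was the highest of the 6 at 540 CPM.

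Among the complex I genes below the filter, Ndufa4, which was named for complex I and is now placed in complex IV, had 5, 5 and 4 counts in KO, against 12, 9 and 8 in WT. By CPM the groups did not overlap. The same held below the filter for Ndufs8, Ndufc2, Cox7c, Cox4i1, Cox6c and Cox8a, lower in KO, and Uqcr10, Uqcr11 and Uqcrfs1, higher. The share over all genes below the filter is not given here. The authors' deposited edgeR table gave Ndufa4 a WT over KO log2 ratio of 1.05 (unadjusted p 0.0349), which is lower in KO. The authors' deposited DESeq table gave Ndufa4 a p of 0.0583. Ndufs5 had 1 count in all 6 libraries together and Ndufb4 had 2.

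Complex II, succinate dehydrogenase, is the only complex with all subunits encoded in the nucleus, and Sdha was its only tested gene. Sdha, the flavoprotein that oxidises succinate (chromosome 13, 74322254 to 74350280, minus strand, GRCm38), had 75, 39 and 60 counts in KO, against 90, 97 and 80 in WT. KO replicate 2 was far the lowest, and no KO library reached a WT library. The mean was 82.9 ± 21.3 CPM in KO and 131 ± 17.1 CPM in WT (SD, n = 3 each), which is a log2 fold change of -0.66 (SE 0.21, unadjusted p 0.00602, edgeR adjusted p 0.917). Leaving out each library, this value ranged from -0.78 to -0.47, and it was -0.87 with the Y-linked pair of libraries left out. No 50-base window of its transcripts occurs in an annotated transcript elsewhere, and it overlaps no gene of the opposite strand. Sdhb, Sdhc and Sdhd, the iron-sulphur subunit and the membrane anchors, had at most 10 counts in any library, so that Sdha made up 87.2% of the summed level of the complex.

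In complex III and cytochrome c the differences went both ways, and 2 of the 4 tested genes lay above 0 and 2 below. Uqcrh, the hinge protein, had 21, 16 and 17 counts in KO, against 24, 14 and 23 in WT, a log2 fold change of -0.21 (SE 0.30), which was -0.065 without WT replicate 1 and -0.40 without WT replicate 2. Uqcrb, which binds near the quinone pocket, had 6, 19 and 9 counts in KO, against 18, 12 and 11 in WT, a log2 fold change of -0.29 (SE 0.44). KO replicate 2 held the highest value of all 6 and KO replicate 1 the lowest. Uqcrc2, a core protein, had 12, 22 and 11 counts in KO, against 16, 12 and 12 in WT, a log2 fold change of 0.14 (SE 0.37). Cycs, the somatic cytochrome c, had 23, 43 and 21 counts in KO, against 39, 21 and 20 in WT, a log2 fold change of 0.090 (SE 0.34). In each genotype 1 library stood high, KO replicate 2 and WT replicate 1. Uqcrb, Uqcrc2 and Cycs each changed sign without 1 library, KO replicate 1 for Uqcrb (0.087), KO replicate 2 for Uqcrc2 (-0.28) and, for Cycs, WT replicate 2 (-0.036), WT replicate 3 (-0.11) or KO replicate 2 (-0.34). KO replicate 2 was also the highest of the 6 libraries in the summed level of the 10 genes, at 191 CPM where the others lay between 113 and 159 CPM.

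Complex IV, cytochrome c oxidase, was the most thinly read. Of its 17 genes only Cox6b1, which links the monomers of the complex, was tested. It had 14, 13 and 9 counts in KO, against 16, 11 and 19 in WT, with overlapping groups, and the log2 fold change was -0.39 (SE 0.35, edgeR adjusted p 0.987). It was -0.24 without WT replicate 3 and -0.14 with the Y-linked pair of libraries left out. The summed level of the 17 genes was 109, 97.2 and 82.7 CPM in KO, against 134, 110 and 138 CPM in WT, and the highest KO library at 109 CPM lay just under the lowest WT library at 110 CPM. Cox7c, a small membrane subunit below the filter, had 7, 5 and 6 counts in KO, against 18, 8 and 19 in WT. The authors' deposited DESeq table gave Cox7c a KO over WT fold of 0.401 with an unadjusted p of 0.00846. In the transcripts of Cox7c 22.1% of 50-base windows also occur in an annotated transcript elsewhere, and reads from such windows can be split or lost.

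Isoforms known from other tissues were near the limit of counting. Low counts were not particular to them: Cox7a2 had 10 counts over the 6 libraries, against 12 for the muscle isoform Cox7a1. A count of 0 in a library allows up to 3 counts, or 3.80 to 4.77 CPM. Cox4i1, the general isoform of the largest nuclear subunit, had 9, 9 and 3 counts in KO, against 12, 9 and 11 in WT, while Cox4i2, known from lung, had 1 count in KO replicate 3 alone. Cox6a1 had 13, 10 and 4 counts in KO, against 8, 3 and 6 in WT, and the heart and muscle isoform Cox6a2 had 3 counts over KO libraries and 0 over WT libraries. Cox6b2, known from testis, had 3 counts over KO and 0 over WT libraries. Cox8a, the general isoform of subunit VIII, had 2, 1 and 1 counts in KO, against 5, 10 and 3 in WT, and the muscle isoform Cox8b had 1 count in each genotype. The muscle isoform Cox7a1 had 2, 0 and 4 counts in KO, against 0, 3 and 3 in WT, and Cox7a2 had 3, 0 and 0 in KO, against 3, 2 and 2 in WT. For the identical c subunits of the ATP synthase ring, Atp5g1 had 7 counts over KO and 5 over WT libraries, Atp5g2 1 and 10, and Atp5g3 17 and 19. In Atp5g2 36.7% of 50-base windows are shared with annotated transcripts elsewhere. Cyct, the testis form of cytochrome c, had 0 counts in all 6 libraries.

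**Figure D3:**
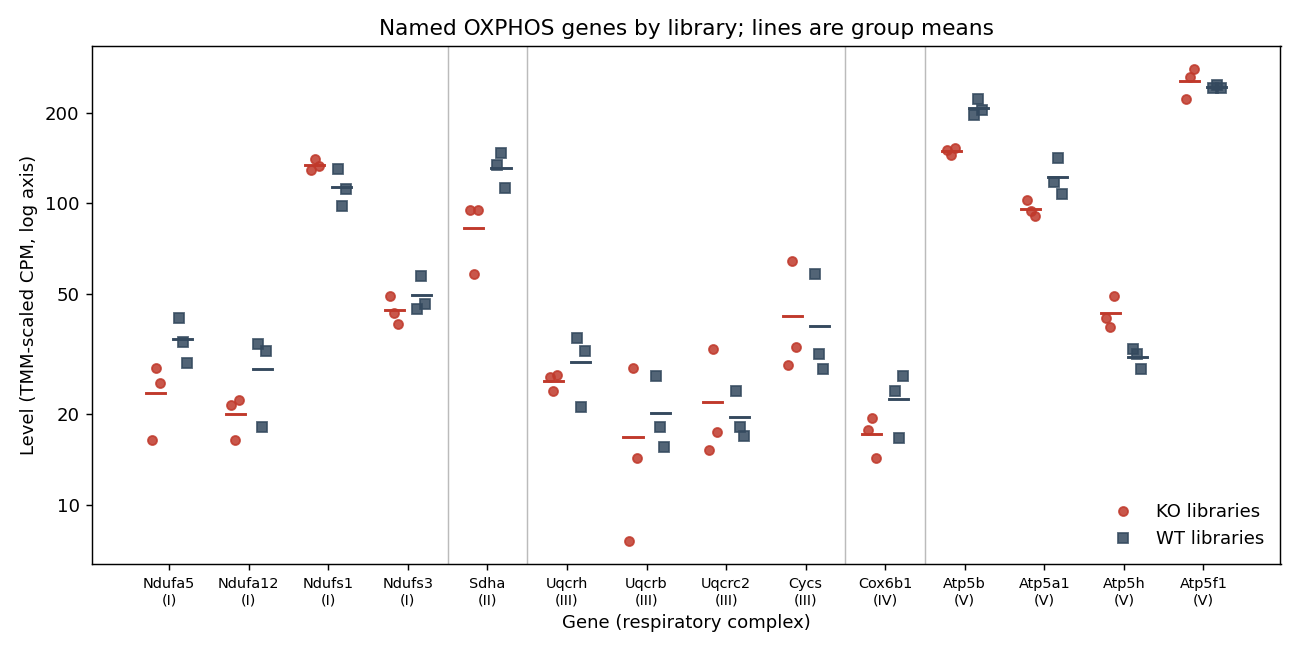
TMM-scaled CPM (log axis) of the 14 genes described by complex, with each library as a point and group means as lines, KO left of WT. For Atp5b, Sdha, Atp5a1 and Ndufa5 all KO points lie below all WT points, and for Atp5h they lie above.

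Complex V held the most counts, and its tested subunits went both ways. Atp5b (chromosome 10, 128083273 to 128090391, plus strand, GRCm38) had 119, 97 and 96 counts in KO, against 132, 147 and 145 in WT. The 3 KO libraries lay close together and below all WT libraries. The mean was 149 ± 3.94 CPM in KO and 208 ± 13.1 CPM in WT (SD, n = 3 each), which is a log2 fold change of -0.48 (SE 0.15, unadjusted p 0.00584, edgeR adjusted p 0.917). Leaving out each library, the value ranged from -0.52 to -0.43. Atp5a1, the alpha subunit that forms the catalytic head with beta, had 81, 63 and 57 counts in KO, against 79, 94 and 76 in WT. Scaled for library size the groups did not overlap, with 95.8 ± 6.09 CPM in KO and 122 ± 17.9 CPM in WT (SD, n = 3 each), which is a log2 fold change of -0.35 (SE 0.19, edgeR adjusted p 0.987), and of -0.23 without WT replicate 2. Atp5h, the d subunit of the peripheral stalk, went the other way, with 33, 26 and 31 counts in KO, against 22, 21 and 20 in WT, a log2 fold change of 0.48 (SE 0.26, edgeR adjusted p 0.987), which was 0.31 with the Y-linked pair of libraries left out. In Atp5h 19.9% of 50-base windows are shared with annotated transcripts elsewhere, while the share was 2.3% in Atp5b and 0% in Atp5a1. Atp5f1, of the same stalk, had 176, 176 and 175 counts in KO, against 162, 163 and 172 in WT. Its log2 fold change was 0.058 (SE 0.14), and the sign turned to -0.0028 with library sizes of all uniquely aligned reads. Atp5j, coupling factor 6, lay at 0.17 (SE 0.23). The summed level of the 15 genes was 668 ± 44.1 CPM in KO and 736 ± 35.4 CPM in WT (SD, n = 3 each), and KO replicate 3 lay within the WT range.

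**Figure D4:**
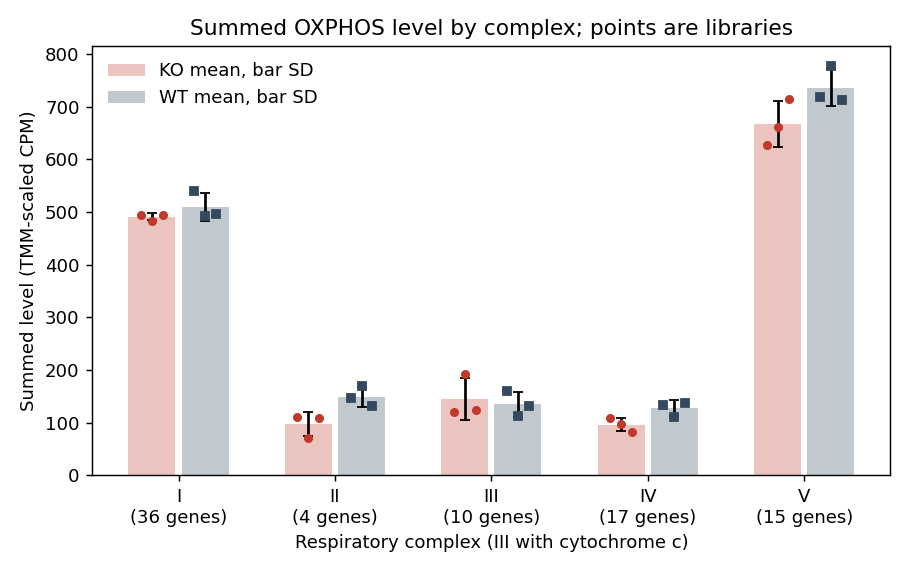
Summed TMM-scaled CPM of all genes of each respiratory complex, including those below the count filter; bars are means with SD and points are the 3 libraries of each genotype, KO left of WT. All KO points lie below all WT points for complexes II and IV, and the groups overlap for complexes I, III and V.

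Over all 82 genes the summed level was 1497 ± 31.7 CPM in KO and 1657 ± 44.3 CPM in WT (SD, n = 3 each), and the highest KO library at 1524 CPM lay below the lowest WT library at 1610 CPM. Atp5b, Sdha and Atp5a1 made up most of that gap, and without them the sums were 1169 ± 48.7 CPM in KO and 1195 ± 49.3 CPM in WT (SD, n = 3 each), with overlapping ranges. The 3 were chosen after their values were seen. The 62 genes below the filter summed to 325 ± 16.9 CPM in KO and 374 ± 14.9 CPM in WT (SD, n = 3 each), and the groups did not overlap. Of the 62, 27 had the higher mean in KO and 33 the lower.

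Overlaps with genes on the other strand touched 10 of the 20 tested genes. These 10 had a median log2 fold change of 0.087, with 6 above and 4 below 0, and the 10 without an overlap a median of -0.35, with 3 above and 7 below. Over all tested genes the same medians were 0.044 and -0.057. Atp5b and Sdha, with the lowest p of the 20, were both without an overlap. With normalisation and test run anew on genes free of opposite-strand overlap, 11 OXPHOS genes were tested and their median was -0.25, with Atp5b, Sdha and Atp5h at an unadjusted p under 0.05 and an adjusted p of 0.919 or more, where 131 of all 2776 genes then tested lay at that unadjusted level.

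**Figure D5:**
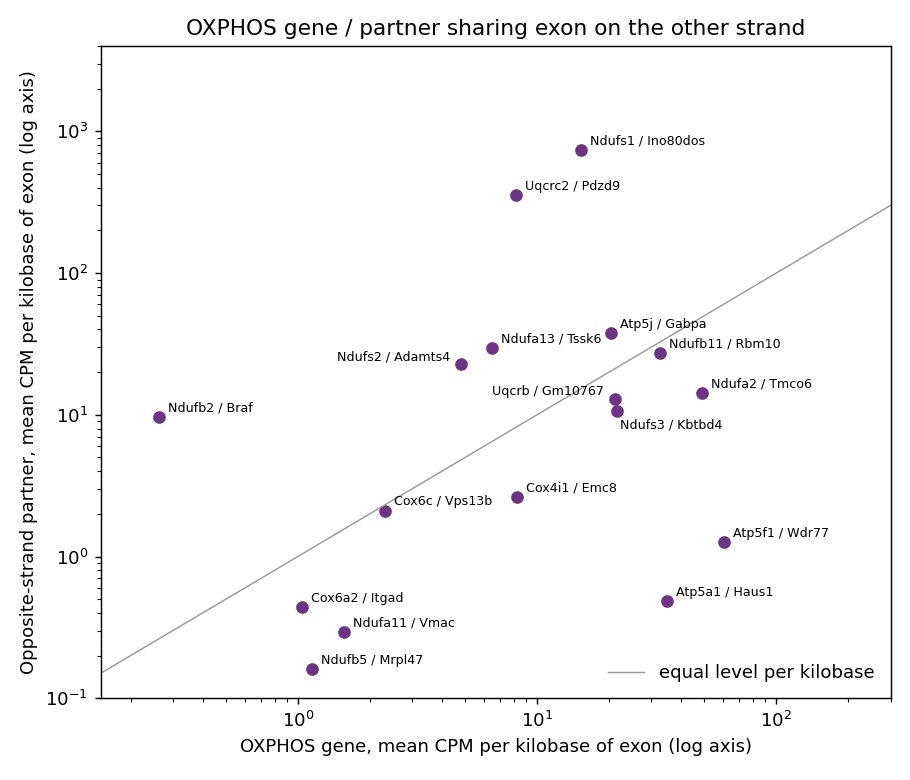
Mean level of each of 17 OXPHOS genes (x axis) and of the counted gene that overlaps its exons on the opposite strand (y axis), both in CPM per kilobase of exon on log axes; the line marks equal levels. Ndufs1 and Uqcrc2 lie far below their partners Ino80dos and Pdzd9, and Atp5f1 and Atp5a1 far above Wdr77 and Haus1.

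For 17 of the 23 genes with an overlap the gene on the other strand was itself in the count files. Per kilobase of exon the partner was higher in 6 pairs and lower in 11, with the ratio of partner to OXPHOS gene between 0.0139 and 48.6. Ino80dos, a noncoding RNA that shares 489 bases with Ndufs1, stood at 743 CPM per kilobase, against 15.3 for Ndufs1. Pdzd9, which shares 504 bases with Uqcrc2, stood at 354 CPM per kilobase, against 8.13 for Uqcrc2. Gabpa, which lies head to head with Atp5j and shares 397 bases, stood at 37.7 CPM per kilobase, against 20.4 for Atp5j. Gabpa had 147, 146 and 144 counts in KO, against 120, 180 and 144 in WT, with overlapping groups. Pairs of the other kind were Atp5f1 with Wdr77, at 60.7 and 1.26 CPM per kilobase, and Atp5a1 with Haus1, at 34.8 and 0.485. Cox4i1 and its neighbour Emc8, a subunit of the endoplasmic reticulum membrane complex, stood at 8.24 and 2.62.

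The comparison tables that the authors deposited rest on these 6 libraries and add no independent samples. The authors' deposited DESeq table held 5 of the 82 genes with an unadjusted p under 0.05, of which 1 was higher in KO and 4 were lower, where 1.26% of all listed genes, many with no count, were at that level. The authors' deposited edgeR table held 8, 2 higher and 6 lower, where 1.9% of all listed genes were. The authors' deposited DESeq table gave KO over WT folds of 0.733 for Atp5b (p = 0.0263) and 0.643 for Sdha (p = 0.00576). The 2 higher in KO in the authors' deposited edgeR table were Uqcr10 and Uqcr11, small subunits of complex III. Uqcr10 had 6, 11 and 5 counts in KO, against 2, 0 and 5 in WT, and Uqcr11 had 6, 2 and 7 in KO, against 1, 1 and 1 in WT.

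Other genes of mitochondrial energy supply gave 0 calls at an adjusted p under 0.05 in the same edgeR test, in all lists that follow. Of the 18 genes of the tricarboxylic acid cycle and pyruvate dehydrogenase, 12 were tested, with 4 above and 8 below 0 and a median log2 fold change of -0.21, and Pdhb, the E1 beta subunit of pyruvate dehydrogenase, lay at -0.57 (SE 0.29). Their summed level was 523 to 639 CPM in KO and 659 to 680 CPM in WT. Of 16 glycolytic genes 13 were tested, with 1 above and 12 below 0 and a median of -0.32. The 16 summed to 1220.5 to 1492.1 CPM in KO and 1526.4 to 1809.3 CPM in WT, and the groups did not overlap. Ldhb, a lactate dehydrogenase subunit, averaged 67.2 ± 5.56 CPM in KO and 102 ± 9.88 CPM in WT (SD, n = 3 each), which is a log2 fold change of -0.60 (SE 0.20, edgeR adjusted p 0.917). Of 16 mitochondrial carriers, porins and calcium uptake genes 6 were tested, with 1 above and 5 below 0 and a median of -0.19, and the phosphate carrier Slc25a3 lay at -0.69 (SE 0.33). Of 12 regulators of mitochondrial biogenesis 6 were tested, 4 above and 2 below 0, with a median of 0.091, and the oxidative stress factor Nfe2l2 lay at 0.57 (SE 0.30). Of 15 counted assembly factors of complex I 2 were tested, 1 above and 1 below 0, with Ndufaf7 at 0.18 (SE 0.27). Of 10 for complexes II and III only Ttc19 was tested, at 0.15 (SE 0.12). The 10 summed to 1037 to 1077 CPM in KO and 875 to 1013 CPM in WT, higher in KO. Ttc19 made up most of that sum, at 1017 ± 31.2 CPM in KO and 915 ± 75.2 CPM in WT (SD, n = 3 each). The sum therefore describes Ttc19 and not the list. Of 20 for complex IV 8 were tested, 5 above and 3 below 0 with a median of 0.074, and Cox15, which makes heme A, lay at 0.23 (SE 0.14). None of 3 counted factors of complex V was tested. Of 5 subunits and regulators that the name rule leaves out, Atpif1, the inhibitor of the ATP synthase, was the only tested gene, at -0.12 (SE 0.43). In the lists given here without a sum, the summed levels of KO and WT overlapped. The subunits encoded in mitochondrial DNA were not analysed here.

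Markers of cell types in the layer were compared between KO and WT in the same way. Of 14 Purkinje cell markers 13 were tested, with 3 above and 10 below 0 and a median log2 fold change of -0.13, and their summed level was 2318 to 2961 CPM in KO and 3009 to 3669 CPM in WT. Of 10 Bergmann glia and astrocyte markers 9 were tested, with 2 above and 7 below 0 and a median of -0.31, and they summed to 678 to 872 CPM in KO and 932 to 1131 CPM in WT. In both lists the sums of the groups did not overlap. At an unadjusted p under 0.05 in the edgeR test lay 2 of the 13 tested Purkinje and 3 of the 9 tested glial markers, all lower in KO. At that level also lay 1 granule cell marker, higher in KO, 1 interneuron marker, lower in KO, and 0 oligodendrocyte markers. Over all tested genes 4.62% reached it, 3.05% on the lower and 1.58% on the higher side. Granule cell markers summed to 256 to 362 CPM in KO and 267 to 316 CPM in WT, and molecular layer interneuron markers to 263 to 337 CPM in KO and 269 to 310 CPM in WT. Oligodendrocyte markers summed to 136 to 173 CPM in KO and 152 to 186 CPM in WT. Endothelial markers summed to 7.48 to 27.8 CPM in KO and 11.3 to 22.4 CPM in WT. Of 10 granule cell markers 8 were tested, 3 above and 5 below 0 with a median of -0.063. Of 8 interneuron markers 4 were tested, 1 above and 3 below 0 with a median of -0.11, and of 9 oligodendrocyte markers 4, 1 above and 3 below 0 with a median of -0.060. None of 6 endothelial markers was tested, and no marker of these lists was at 0 in all 6 libraries. The lowest p in these lists belonged to Pvalb (-0.73), S100b (-0.74), Gabrd (0.69), Tfap2b (-0.77) and Trf (-0.39), given as log2 fold changes. The part of cell type makeup in the lower Atp5b, Sdha and summed levels was not tested.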

How the data were processed

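Libraries of 3 STIM1 KO and 3 WT mice were made with a TruSeq mRNA kit and read as single reads of 50 bases on an Illumina HiSeq 2500, per the labels' protocols. Per the submitters' processing notes, the tools were TopHat, HTSeq 0.9.1, DESeq and edgeR, and the build GRCm38 (mm10). The strand setting of the counting is not given in the sources used. The authors deposited whole-number counts per gene symbol and 5 HTSeq summary rows, which were left out. They held 98.8% of the uniquely aligned reads as reads of no gene and 0.00416% to 0.00492% as ambiguous. The authors' deposited DESeq table gives a ratio (fold, KO over WT) and p-value, and their deposited edgeR table a log2 ratio (WT over KO, per the file headers) and p-value. No SD or n is given with these.

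KO and WT were compared in R 4.3.3 by the quasi-likelihood test of edgeR 4.0.16 (filterByExpr with a minimum count of 10, then TMM, with factors from 0.954 to 1.04, then glmQLFit and glmQLFTest) over all 5320 tested genes, with Benjamini-Hochberg adjustment over all of them. CPM uses TMM-scaled library sizes, and the standard error is implied by the F statistic. The fit was tested on simulated data. Every pair of libraries differed by more than sampling noise (chi-square over degrees of freedom 2.3 or more), and none were merged. Exon lengths, overlaps (50 bases or more) and positions come from GENCODE M21, which matched all 82 symbols, and 23376 of 24421 over all (95.7%). A shared window is a 50-base stretch of a gene's GENCODE transcripts that occurs, on either strand, in a transcript of a gene at another locus. Promoter sequences are from RefSeq on GRCm38.p6.

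The genes named per complex are the 3 tested of lowest p and the 2 of highest mean CPM, with the isoform groups, the lowest p of each other list and the opposite-strand partner of most counts. Other genes below the filter (Ndufa4, Ndufs8, Ndufc2, Cox7c, Cox6c, Uqcr10, Uqcr11, Uqcrfs1, Ndufs5, Ndufb4) and the remaining tested genes were named after their values were seen. A further marker list is not reported here. The members and lists were chosen with earlier results of these data known. Alternatives were DESeq2 1.42.0, limma-voom (limma 3.58.1), other normalisations, library sizes and filters, a replicate block, genes with no opposite-strand overlap, and fits that leave out single libraries or the Y-linked pair of libraries.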

Additional observations from a re-analysis of the deposited data

Results flagged for a closer look

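Reads assigned to no gene made up 98.8% of the uniquely aligned reads on average. They lie outside the comparison, and the files give their total alone.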

How the results depend on the processing

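Of the 82 genes 0 were called in each of the 16 alternatives. Over all genes the count of calls was 6 with no filter on low counts, 1 with the Y-linked pair of libraries left out, 1 without WT replicate 3, and 0 to 1 leaving out each library; none of these was an OXPHOS gene. The number of OXPHOS genes at an unadjusted p under 0.05, 2 in the main test, was 8 of 80 tested with no filter (638 of 16540 over all genes), 4 of 34 with a CPM filter (294 of 6600) and 2 to 4 leaving out each library (208 to 290 over all genes, of 5584 to 5783 tested), with Atp5b and Sdha among them in all 16. The median log2 fold change of the OXPHOS genes tested in each fit lay between -0.25 and -0.028. The first was over 11 genes with no opposite-strand overlap, the second over 24 genes without WT replicate 1. Of the 14 genes named per complex 4 changed sign: Uqcrb (-0.92 to 0.087 leaving out each library), Uqcrc2 (-0.28 to 0.36), Cycs (-0.34 to 0.48) and Atp5f1 (-0.0028 with library sizes of all uniquely aligned reads, -0.012 without KO replicate 3, -0.018 without the Y-linked pair). The cause of these changes was not tested. The replicate block called 0 genes, left 2 OXPHOS genes at an unadjusted p under 0.05 (287 of 5320 over all genes, against 246 without the block) and gave a median of -0.14. Equal replicate numbers correlated at 0.143, 0.0795 and 0.122, each sample of both genotypes best with its own number, but no label ties them, so they were not treated as paired. Few counts in genes limit the test: 62 of the 82 genes were below the filter.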
